A study of Mus musculus with 12 samples.

Results

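The libraries described here are the 4 that carry the numbers 1 and 2, set against the 8 numbered 3 to 6, out of 12 in all. Each library held 100 tumour-associated macrophages (TAMs), which were sorted as CD45+CD11b+F4/80high cells from tumours of MC38, a mouse colon adenocarcinoma line. Tumours were taken from WT mice at day 7. Mice had been injected with DMSO, the solvent, or with picrotoxin, which blocks the chloride channel of the GABAA receptor, from the day before the tumour cells were given and every other day after it, and 6 libraries were made per treatment.

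Libraries numbered 1 and 2 were DMSO replicates 1 and 2 and picrotoxin replicates 1 and 2, so that both treatments were present equally in each number set. The sets were chosen from the values of these same libraries, after the data had been seen. Every difference between the sets is therefore given as a description, with no p-value, and supports nothing by itself. The labels call the numbers separate library preparations and give no date, cage, tumour size or sequencing run. The methods describe 1 library per mouse, while a figure legend of the study gives fewer mice than libraries, so that some libraries may share an animal. The SDs and p-values below therefore measure only the spread between libraries, and the p-values may be too small. WT mice were either C57BL/6J or C57BL/6N, and neither the substrain nor the age is given per library. Number set, mouse, tumour, substrain and preparation cannot be told apart. Xist had 0 molecules in every library and the Y-linked Ddx3y had between 14 and 29.

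IFNγ, a cytokine of T and NK cells, binds its receptor on macrophages, and JAK kinases then pass the signal to the nucleus. The transcription factor IRF1, which is induced early, and other factors raise guanylate-binding GTPases, MHC molecules, the immunoproteasome, the chemokines CXCL9 and CXCL10 and the checkpoint ligand PD-L1. Macrophages of a growing tumour are renewed from blood monocytes, and matrix and cytoskeletal genes such as Fn1 and S100a4 are part of the programme that these cells carry.

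Counts were molecules per gene, each molecule marked by its own barcode at reverse transcription. Libraries numbered 1 and 2 held 219630 to 257016 molecules and those numbered 3 to 6 held 201697 to 309617. Between 9895 and 10155 genes were detected in the former and between 9846 and 10866 in the latter, and the ribosomal RNA row Rn45s took 7.37 to 13.4% and 7.76 to 15.2% of molecules. Of 14 macrophage markers, all were detected, and they summed to 1.88 to 2.02% of molecules in the first set and 1.46 to 1.95% in the second. Ptprc, which encodes CD45, Itgam, which encodes CD11b, and Adgre1, which encodes F4/80, overlapped between the sets, with log2 differences of 0.26, -0.02 and 0.08. The 2 libraries with the most fibroblast marker molecules, DMSO replicates 3 and 5 with 161 and 781 of them, both belonged to the second set. The count of separated genes, the main list medians and the counts of both tests are also given without them.

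Of 24781 rows, 9714 had a mean raw count of at least 1 and were kept. At this limit, 134 genes had a mean of exactly 1 and were kept, and 148 genes with a mean of 0.917 were left out. A gene was called separated when all 4 libraries of the first set lay strictly above or strictly below all 8 of the second in normalised molecules, which are counts divided by the library's size factor. In these terms 65 genes were separated with higher values in libraries numbered 1 and 2, 0.669% of those kept, and 47 with lower values, 0.484%. Among the 3741 genes with a mean of at least 10 normalised molecules, 53 were separated upwards (1.42%) and 19 downwards (0.508%). The sizes were moderate. Their median log2 difference, from a fit that held treatment as a term, was 0.59 with a range of 0.19 to 0.94 upwards, and -0.60 with a range of -1.16 to -0.33 downwards. Scaling had a part in the calls, because 33 of the 112 were also apart in the unscaled counts, 25 of the 72 with a mean of at least 10 and 8 of the other 40. Without DMSO replicates 3 and 5, 178 genes were separated, 111 of the 112 among them, and this larger count follows in part from the 2 fewer libraries that must lie apart.

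**Figure D1:**
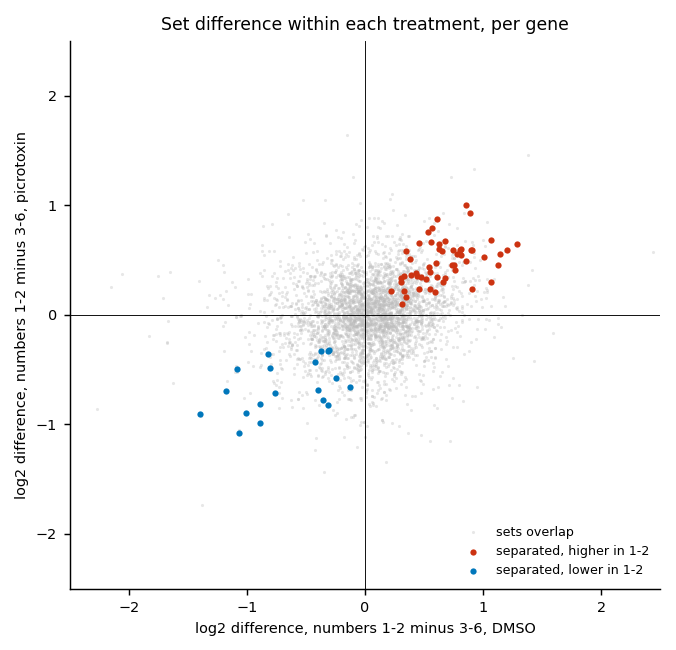
Log2 difference between libraries numbered 1-2 and 3-6 within the DMSO libraries (horizontal axis) and within the picrotoxin libraries (vertical axis), each point a gene with a mean of at least 10 normalised molecules, 3736 shown and 5 beyond the axis limits of 2.5. The 53 genes separated upwards (red) lie at the upper right and the 19 separated downwards (blue) at the lower left, as the choice of these genes requires, and the grey cloud of the other genes is nearly round.

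The sets were apart in these genes, yet the transcriptome as a whole differed little. Across the 3741 genes, the set difference within DMSO libraries and that within picrotoxin libraries, which share no library, had a Pearson correlation of 0.15 and a Spearman correlation of 0.17, over genes that are not independent of each other. The median size of the log2 difference was 0.17 between the number sets and 0.15 between the treatments. Of all genes kept, 45.7% had a log2 difference above 0, 25% were above 0 within both treatments and 28.2% were below 0 within both. The first principal component held 17.9% of the variance and the second 13.3%. Libraries numbered 1 and 2 lay at 4.88 to 10.1 on the first, where picrotoxin replicates 3 and 6 lay at 4.42 and 6.71, and DMSO replicates 3 and 5 were farthest from them, at -16.5 and -13.1.

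**Figure D2:**
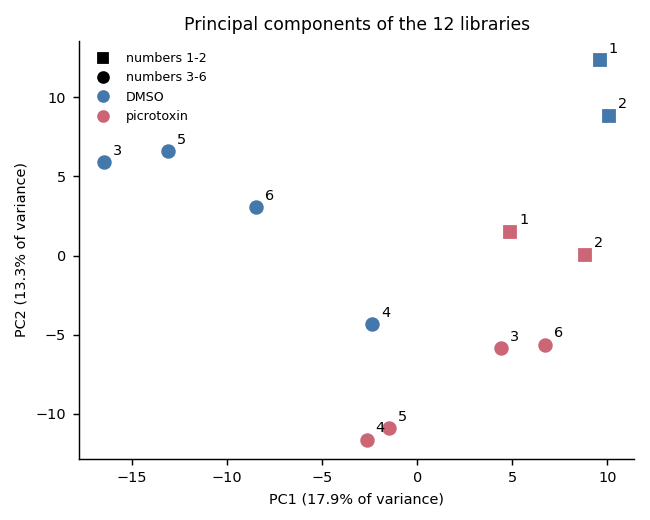
First (horizontal) and second (vertical) principal component of the 12 libraries, from log2 CPM of the genes with a mean of at least 10 normalised molecules, with squares for numbers 1-2, circles for numbers 3-6, colour for treatment and the replicate number beside each point. The 4 squares are at the right, and 1 circle, picrotoxin replicate 6, lies as far right as 1 of the squares.

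Genes of the IFNγ response were the group with the most separated members. Of 31 kept genes of a list of known IFNγ-induced genes, 30 had a log2 difference above 0, against 45.7% of all genes, and 27 were above 0 within both treatments, against 25% of all. The median was 0.53, against -0.04 for all genes. It was 0.56 within DMSO, 0.34 within picrotoxin libraries and 0.52 without DMSO replicates 3 and 5. Of the 31, 7 were separated upwards, against 0.669% of all genes, among them Irf1, Gbp4, Gbp8, Cd274, Fam26f and Serpina3g. The list was drawn from general knowledge, with earlier results of these data known, so its count is not independent evidence of its direction. The mean level of the list, as mean log2 CPM (molecules scaled to library size), was 7.67 to 7.75 in libraries numbered 1 and 2. In those numbered 3 to 6 it had a lowest value of 6.95, a median of 7.27 and a highest of 7.43, so that the sets did not overlap. Such a mean level was wholly higher in the first set for 4 of 39 gene lists and wholly lower for 0. The other lists were MHC class I and immunoproteasome, checkpoint and costimulatory ligands, and leukocyte actin. These lists are not all separate observations, since Cd274 belongs to both the IFNγ and the checkpoint list.

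**Figure D3:**
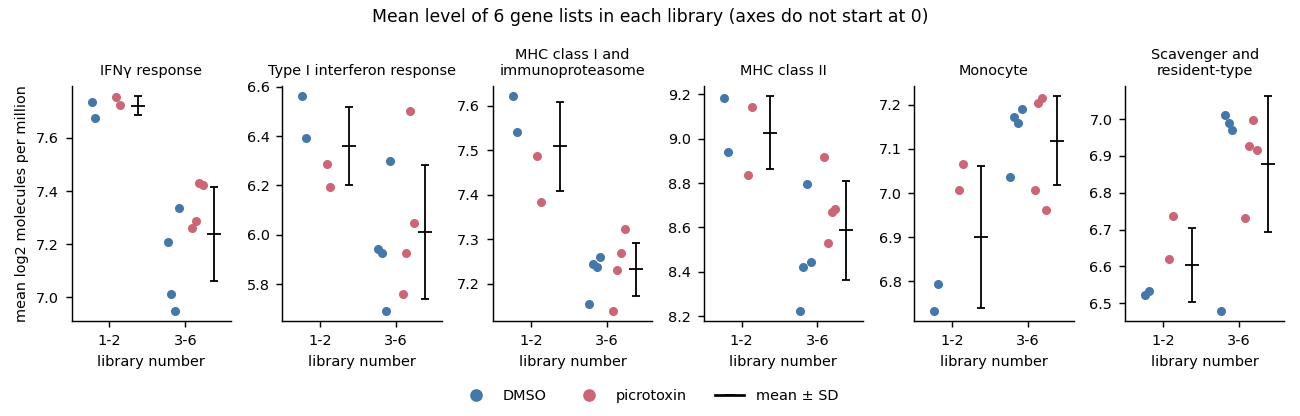
Mean log2 CPM of the kept genes of 6 lists in each library (vertical axes, which do not start at 0), for library numbers 1-2 and 3-6, blue for DMSO and red for picrotoxin, with the mean and SD of each set. The IFNγ response and the MHC class I list do not overlap between the sets, while the other 4 lists do.

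Irf1 encodes the transcription factor named above. It (chromosome 11, 53770014 to 53778374, plus strand, coordinates of GRCm38 here and below) had 55.1 and 56.6 normalised molecules in DMSO replicates 1 and 2 and 66.4 and 68.0 in picrotoxin replicates 1 and 2. Libraries numbered 3 to 6 had a lowest value of 25.0, a median of 41.2 and a highest of 54.3. The highest, DMSO replicate 3, lay just under the lowest of the first set, and the log2 difference was 0.59. The components upstream did not show this. The receptor chains Ifngr1 and Ifngr2 had log2 differences of -0.18 and 0.02, and the kinases Jak1 and Jak2 had -0.05 and 0.00. Ifng itself had 0 molecules in 11 libraries and 2 in picrotoxin replicate 4, and Ifnb1 had 0 in all, where a count of 0 allows a share of up to 0.00149% of molecules in the shallowest library.

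Guanylate-binding proteins are GTPases that gather on vacuoles holding pathogens. Gbp4 (chromosome 5, 105115767 to 105139586, minus strand) had 88.4 and 97.3 normalised molecules in DMSO replicates 1 and 2 and 74.7 and 68.0 in picrotoxin replicates 1 and 2. The other 8 libraries had a lowest value of 28.6, a median of 56.9 and a highest of 66.4. The picrotoxin libraries of the sets were close to each other here, and the log2 difference was 1.06 within DMSO and 0.30 within picrotoxin. Gbp8, its neighbour at a distance of 62158 bases, had 26.7 ± 4.02 against 14.8 ± 5.11 (mean ± SD, n = 4 and 8, here and below) and a log2 difference of 0.89. The most abundant member, Gbp2, had 438 ± 60.9 against 265 ± 53.6 and a log2 difference of 0.72, with overlap between the sets. Gbp members lie in 2 clusters of similar sequence and Gbp4, Gbp8 and Gbp9 overlap in the annotation, so that reads may have been divided among them.

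Genes of antigen presentation on MHC class I were also higher. Psme1, a subunit of the proteasome activator that IFNγ induces (chromosome 14, 55578494 to 55581527, plus strand), had 145 and 158 normalised molecules in DMSO replicates 1 and 2 and 147 and 140 in picrotoxin replicates 1 and 2. Libraries numbered 3 to 6 ranged from 82.3 to 103 with a median of 94.8. All 4 of the first set were thus above the other 8, and the log2 difference was 0.66, with 0.68 within DMSO and 0.67 within picrotoxin. H2-K1, a classical class I heavy chain (chromosome 17, 33996012 to 34000619, minus strand), had 254 ± 14.8 against 193 ± 15.8 and a log2 difference of 0.40. Over the list of class I and immunoproteasome genes, 16 of 20 were above 0, against 45.7% of all genes, with a median of 0.28. In it 3 were separated upwards, against 0.669% of all genes, the third being H2-T23 at 8.86 molecules on average. Genes of MHC class II overlapped between the sets, although 8 of 8 were above 0 and the median was 0.47, as in H2-Ab1 with 425 ± 26.6 against 305 ± 71.6 molecules. H2 genes share sequence, and how reads with several matches were counted is not given in the sources used here.

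Cd274 encodes PD-L1, the ligand that restrains T cells through PD-1. It (chromosome 19, 29362107 to 29388095, plus strand) had 46.8 and 54.6 normalised molecules in DMSO replicates 1 and 2 and 45.2 and 53.1 in picrotoxin replicates 1 and 2. Libraries numbered 3 to 6 had a lowest value of 19.6, a median of 29.7 and a highest of 39.1, so that the sets did not overlap and the log2 difference was 0.75. Among 12 checkpoint and costimulatory ligands it was the only separated gene, against 0.669% of all genes separated upwards. Of the 12, 9 were above 0, against 45.7% of all genes, with a median of 0.24.

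Chemokines were mixed. Ccl12, a chemokine that draws monocytes (chromosome 11, 82101845 to 82103399, plus strand), had 137 and 103 normalised molecules in DMSO replicates 1 and 2 and 117 and 111 in picrotoxin replicates 1 and 2, against 58.7 to 98.1 with a median of 64.2 in the other 8. Its log2 difference was 0.71, and it was the 1 separated gene of 10 CC chemokines, against 0.669% of all genes separated upwards. Of the 10, 6 were above 0, against 45.7% of all genes. Ccl5 differed by 1.43 and Ccl9 by -0.65, both with overlapping sets. Of the CXC chemokines, Cxcl9 had 408 ± 73.3 against 269 ± 59.5 molecules and Cxcl10 had 206 ± 53.1 against 130 ± 32.9. Both are IFNγ-induced and draw T cells, and both overlapped between the sets, with log2 differences of 0.60 and 0.65. For 7 CXC chemokines the median was 0.41, with 5 above 0, against 45.7% of all genes.

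**Figure D4:**
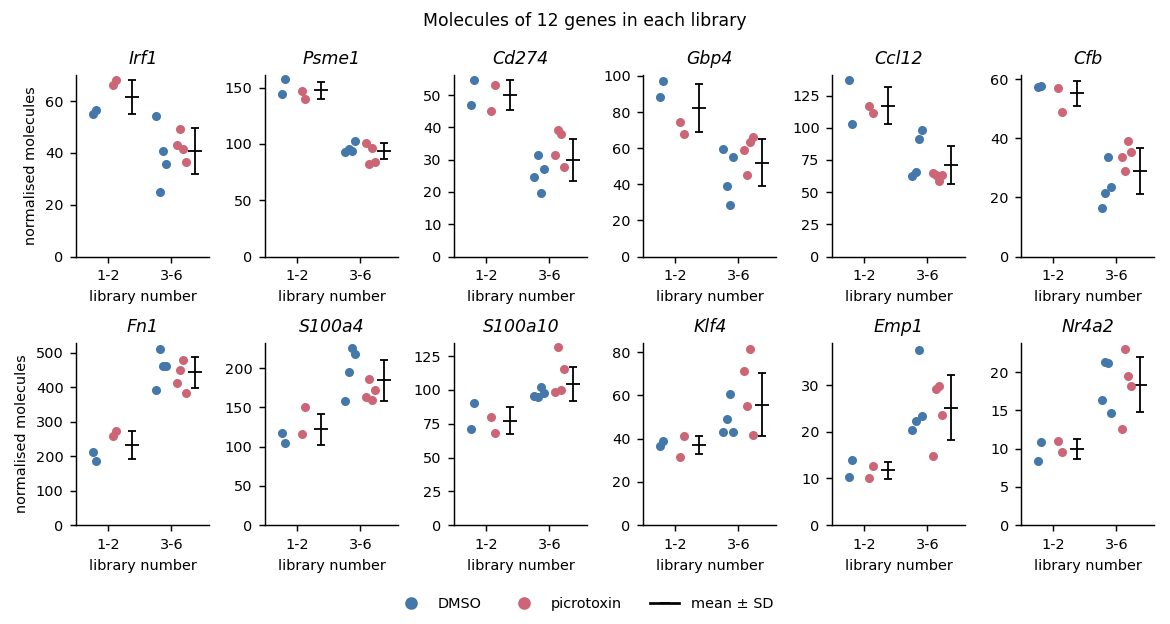
Normalised molecules (vertical axes, from 0) of 12 genes in each library, for library numbers 1-2 and 3-6, blue for DMSO and red for picrotoxin, with the mean and SD of each set beside the points. The upper 6 genes are higher in all 4 libraries numbered 1 and 2, and the lower 6 genes are lower in all 4, with the widest relative gap in Psme1 and Fn1.

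Genes of other interferon lists gave a weaker picture. Of 40 type I interferon response genes, 31 were above 0, against 45.7% of all genes, with a median of 0.37. The median was 0.62 within DMSO but 0.15 within picrotoxin libraries. Ifi204, a cytosolic DNA sensor, was the only separated member, at 78.7 ± 4.97 against 52.8 ± 9.61 molecules, where 0.669% of all genes were separated upwards. Isg15 differed by 0.86 and Irf7 by 0.88, each with overlap, while Ddx58 had -0.39 and Mx1 -0.08. The Ifi200 genes have near copies on chromosome 1, so the value of Ifi204 is uncertain in this respect.

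The separated gene with the largest upward difference at a mean of at least 10 normalised molecules was Cfb. It encodes complement factor B of the alternative pathway (chromosome 17, 34856374 to 34862514, minus strand) and had 57.2 and 57.6 normalised molecules in DMSO replicates 1 and 2 and 57.1 and 48.8 in picrotoxin replicates 1 and 2. Libraries numbered 3 to 6 had a lowest value of 16.4, a median of 31.3 and a highest of 39.1, and the log2 difference was 0.94. Within those 8 libraries the DMSO values were 16.4 to 33.5 and the picrotoxin values 29.1 to 39.1. A read-through transcript, Gm20547, shares 91.6% of the 50-base stretches of the last 500 bases of Cfb, so that the 2 cannot be told apart. The rest of the complement list did not move with Cfb: of 12 genes, 6 were above 0, against 45.7% of all genes, and the median was 0.03. C1qc was the other separated member, with 592 ± 44.1 against 485 ± 36.8 molecules, where 0.669% of all genes were separated upwards.

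Serpina3f and Serpina3g, serine protease inhibitors 15018 bases apart on chromosome 12, had 19.4 ± 3.26 against 10.3 ± 2.03 and 30.1 ± 3.55 against 16.3 ± 2.77 molecules, with log2 differences of 0.91 and 0.89. They belong to a cluster of near copies. Ly6a, the surface protein Sca-1, had 339 ± 41.9 against 187 ± 40.1 and a log2 difference of 0.86, and Ly6e, 34973 bases away on chromosome 15, was also separated at 0.46. Fgl2, a prothrombinase and secreted regulator of T cells, had 230 ± 14.2 against 130 ± 30.9 and a log2 difference of 0.83. Ifitm3, a membrane protein that blocks virus entry, had 250 ± 25.7 against 155 ± 24.5 and 0.69. Ms4a4c, a membrane protein of monocytes, had 85.8 ± 8.62 against 51.6 ± 5.08 and 0.73, and Ms4a6b, 91313 bases away, was separated at 0.45. In all, 7 pairs of separated genes lay within 200000 bases of each other on chromosomes 5, 12, 15, 17 and 19, and both genes of every pair were higher. Those on chromosome 17 were all among Stk19, Cfb and D17H6S56E-5, so that the 7 pairs are not 7 separate places. The number of such pairs among all genes kept was not counted. Fam26f, an IFNγ-induced membrane protein, had 37.6 ± 4.41 against 25.8 ± 6.09 and a log2 difference of 0.55.

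Some phagocyte genes were separated too, with differences from 0.78 in Ppt1 down to 0.20 in Cfl1. They are named because they were separated. Ppt1, a lysosomal thioesterase, had a log2 difference of 0.78, Ctsc, a cathepsin that activates serine proteases, had 0.38, and Psap, the precursor of the saposins, had 0.37. They were the 3 separated genes among 51 of the lysosome list, against 0.669% of all genes separated upwards. Of the 51, 36 were above 0, against 45.7% of all genes, with a median of 0.11, against -0.04 for all. The same shares of all genes apply to the Fc receptor and actin lists that follow. Fcer1g, the signalling chain of Fc receptors, had 416 ± 14.5 against 332 ± 41.8 molecules, and the 10 genes of the Fc receptor list had a median of 0.29 with 2 separated. Of 26 leukocyte actin genes, 24 were above 0, with a median of only 0.14, and Tmsb4x and Cfl1 were separated at 0.24 and 0.20. The other named genes with higher values were Cd72, a B cell and macrophage surface lectin, at 0.66, Tmbim4 at 0.68, Rasa4, a Ras GTPase activator, at 0.73, Ier5 at 0.62, Uqcr10, a subunit of complex III, at 0.53, and Calr, the chaperone calreticulin, at 0.19. Of the last 500 bases of Cd72 and Cfl1, 66.5% and 67.6% of the 50-base stretches also lie in genes of the opposite strand, Tesk1 and Snx32, and the use of strand in the counting is not given in the sources used here. The rows Morf4l1, Morf4l1b and Morf4l1-ps1 were all separated at near-equal counts and are copies of one another, so that they stand for 1 observation rather than 3.

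Among the genes that were lower in libraries numbered 1 and 2 was fibronectin, a matrix protein that macrophages and fibroblasts make. Fn1 (chromosome 1, 71585473 to 71653280, minus strand) had 211 and 186 normalised molecules in DMSO replicates 1 and 2 and 257 and 273 in picrotoxin replicates 1 and 2. Libraries numbered 3 to 6 had a lowest value of 381, a median of 456 and a highest of 511, and the log2 difference was -0.94, with -1.17 within DMSO and -0.70 within picrotoxin, and -0.94 without DMSO replicates 3 and 5. All 4 of the first set lay under all 8 of the second. Picrotoxin replicate 3 had 7 raw fibroblast marker molecules and 412 normalised molecules of Fn1, while DMSO replicate 5 had 781 and 461. These libraries were picked after their values were seen, and the part of fibroblasts in the Fn1 difference was not tested.

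S100a4, a calcium-binding protein of motile cells, had 118 and 104 normalised molecules in DMSO replicates 1 and 2 and 116 and 151 in picrotoxin replicates 1 and 2, against 159 to 226 with a median of 180 in the other 8. Its log2 difference was -0.60. S100a10, which binds annexin A2, had 70.8, 90.4, 80.2 and 68.0 against 94.6 to 131 with a median of 99.4, and Ahnak, a large scaffold that binds S100a10, had 99.5 ± 12.8 against 150 ± 23.1. These were lower in all 4 libraries, while the list of 14 S100 proteins and annexins had a median of -0.18. In that list 8 were below 0, which is near the share of all genes, 5272 of 9714. The gap was narrow for S100a4 and S100a10, where picrotoxin replicate 2 at 151 and DMSO replicate 2 at 90.4 were closest to the second set. The predicted gene Gm42674 shares 56.3% of the 50-base stretches at the end of S100a4.

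Among transcription factors, Klf4, which is induced along monocyte differentiation, had 36.4 and 38.7 normalised molecules in DMSO replicates 1 and 2 and 31.3 and 41.4 in picrotoxin replicates 1 and 2, against 41.8 to 81.7 with a median of 52.2. Its sets touched almost, and its log2 difference was -0.59. Nr4a2, an orphan nuclear receptor of the immediate-early class, had 9.97 ± 1.29 against 18.4 ± 3.62 and a log2 difference of -0.87. Both belong to the immediate-early list, which had a median of -0.14 over 22 genes and in which Ier5 was separated in the other direction. Emp1, an epithelial membrane protein that macrophages also express, had 11.8 ± 1.83 against 25.1 ± 6.95 and -1.09. Lsp1, an actin-binding protein of leukocytes, had 13.8 ± 3.56 against 27.0 ± 6.74 and -0.96. The long non-coding RNA Kcnq1ot1, which is read antisense to Kcnq1, had 10.1 ± 3.19 against 23.4 ± 6.04 and -1.16. Washc5, of the WASH complex, Agap1, an Arf GTPase activator, Naa20, an N-terminal acetyltransferase, Selenos, of the ER membrane, and Stk4, a Hippo pathway kinase, had log2 differences of -0.96, -0.76, -0.65, -0.54 and -0.45. Thoc1 had -0.80, and all of its last 500 bases overlap Usp14 on the other strand, so that its row is uncertain.

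The monocyte list as a whole went down in part. Of 17 genes, 11 were below 0, against 5272 of the 9714 genes kept, and 9 were below 0 within both treatments, against 28.2% of all genes. The median was -0.37, and it was -0.17 without picrotoxin replicate 1. Fn1 and S100a4 were separated downwards, against 0.484% of all genes, and Ms4a4c upwards, against 0.669%. Ly6c2, which marks recently arrived monocytes, had 0.31 and Ccr2, the receptor by which they leave the marrow, had -0.14, both with overlap. Of 16 scavenger and resident-type macrophage genes, 13 were below 0 with a median of -0.35, none was separated, and Mrc1, the mannose receptor, had 57.7 ± 17.5 against 87.2 ± 23.9 molecules.

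**Figure D5:**
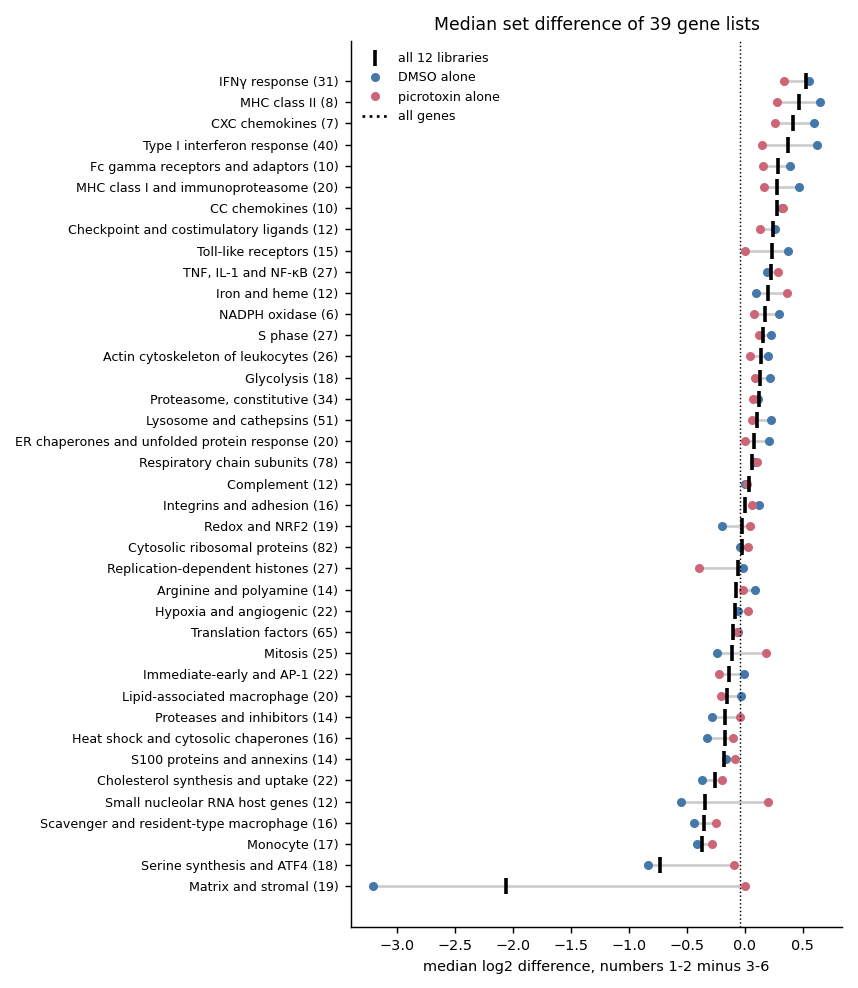
Median log2 difference between libraries numbered 1-2 and 3-6 (horizontal axis) for 39 gene lists, with the number of kept genes in brackets, for all 12 libraries (black bar) and within DMSO (blue) and picrotoxin (red) libraries, and the median of all genes as a dotted line. The IFNγ response list is the highest at 0.53, and the matrix list, at -2.06 over all libraries, is at 0 within picrotoxin libraries.

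Of the 39 programme lists, 2 more had medians beyond 0.5 in size, and both were near 0 within picrotoxin libraries. Of 19 matrix and stromal genes all were below 0, against 5272 of the 9714 genes kept, with a median of -2.06. That median was -1.89 when the 3 genes with no molecule in one set are put at a floor of 3 molecules, and none was separated. The median was -3.21 within DMSO and 0 within picrotoxin. These genes took 0.117% and 0.137% of molecules in DMSO replicates 1 and 2 and 0.110% and 0.156% in picrotoxin replicates 1 and 2, against 0.722%, 0.351%, 0.932% and 0.229% in DMSO replicates 3 to 6 and 0.0933% to 0.205% in picrotoxin replicates 3 to 6. The 12 fibroblast markers, which all belong to the matrix list as well, summed to 11 to 29 molecules in the first set and 7 to 781 in the second, and the median of the matrix list was -0.77 without DMSO replicates 3 and 5. The part of fibroblasts in this difference was not tested. In samples of pooled cells, fewer cells of a type and less RNA per cell cannot be told apart. Of 18 serine synthesis and ATF4 target genes, 15 were below 0 with a median of -0.74, but it was -0.095 within picrotoxin libraries and -0.14 among members with a mean raw count of at least 10, and none was separated.

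Markers of other cells were few in both sets. T and NK cell markers summed to 0 or 1 molecule in libraries numbered 1 and 2 and to 0 to 24 in the others, where Gzmb had 20 molecules in picrotoxin replicate 6, and 5 of the 13 were at 0 in all 12 libraries. Neutrophil markers summed to 8 to 12 and 4 to 11 molecules, dendritic cell markers to 7 to 18 and 5 to 25, and B cell markers to 1 to 3 and 0 to 2. Epithelial markers summed to 9 to 14 and 8 to 21, endothelial markers to 7 to 12 and 4 to 12, mast cell markers to 0 and 0 to 3, and erythroid markers to 0 to 1 in both sets.

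The other 40 separated genes had means under 10 normalised molecules, 12 upwards and 28 downwards. The upward ones ran from Fam214b at 0.53 to St3gal5, a ganglioside synthase, at 1.48, with Serpinb9, an inhibitor of granzyme B, at 9.05 ± 1.38 against 4.52 ± 1.91 molecules. Downwards, Sox9 had 0.922 to 1.06 molecules against 1.07 to 9.22, and Pxdn, a peroxidase of basement membranes, had 0.230 ± 0.461 against 4.53 ± 4.34. Samd4 had no molecule in the first set and 1 to 3 in each library of the second. At this depth such genes were separated by a few molecules, and for Sox9 and Zbtb14 a single molecule stood on both sides of the gap, so that only the scaling set them apart. These genes were picked from the 40 after their values were seen.

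The median length of the longest annotated transcript was 2354 bases for the genes separated upwards, 4028 for those separated downwards and 3405 for all genes kept, with 96.9% to 100% of genes matched. Their GC content had medians of 50.6%, 49.2% and 49.2%. The part of length in the separation was not tested.

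Of the genes separated upwards, 47 of 65 had promoters in the RefSeq table for GRCm38.p6, which gives 250 bases before and 50 after each start. Promoters were searched on both strands for the ISRE core GAAANNGAAA, which IRF factors bind, and the GAS core TTCNNNGAA, the gamma-activated sequence. The 2 motifs may overlap. An ISRE core was in 5 of 60 promoters of upward genes (8.33%) and in 1 of 46 promoters of downward genes (2.17%). It was in 3.54% of promoters of the genes kept and in 3.44% of all 32851 promoters of the table. For the GAS core these were 8 of 60 (13.3%), 1 of 46 (2.17%), 6.8% and 8.3%. Promoters are not independent of each other, since both promoters of Serpina3f hold the same GAS core. A match describes letters only, and was not tested as a site. A total of 4 promoters of upward genes are shown because they carry a core near the start of a gene described above, with the core in capitals, and they are Irf1 (chr11:53769764-53770063, plus strand), Psme1 (chr14:55578244-55578543, plus strand), Ifitm3 (chr7:141010695-141010994, minus strand) and Serpina3g (chr12:104235897-104236196, plus strand).
Irf1: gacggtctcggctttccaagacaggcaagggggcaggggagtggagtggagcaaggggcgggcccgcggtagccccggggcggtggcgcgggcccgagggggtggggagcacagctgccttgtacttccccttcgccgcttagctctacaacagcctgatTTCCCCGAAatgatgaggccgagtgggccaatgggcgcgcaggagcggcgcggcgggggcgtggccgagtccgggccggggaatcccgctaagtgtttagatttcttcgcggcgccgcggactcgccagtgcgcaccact
Psme1: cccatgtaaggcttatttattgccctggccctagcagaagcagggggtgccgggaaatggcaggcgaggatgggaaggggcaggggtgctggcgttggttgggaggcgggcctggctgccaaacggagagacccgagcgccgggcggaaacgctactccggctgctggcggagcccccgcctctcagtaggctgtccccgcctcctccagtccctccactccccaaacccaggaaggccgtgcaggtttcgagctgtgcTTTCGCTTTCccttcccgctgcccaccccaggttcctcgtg
Ifitm3: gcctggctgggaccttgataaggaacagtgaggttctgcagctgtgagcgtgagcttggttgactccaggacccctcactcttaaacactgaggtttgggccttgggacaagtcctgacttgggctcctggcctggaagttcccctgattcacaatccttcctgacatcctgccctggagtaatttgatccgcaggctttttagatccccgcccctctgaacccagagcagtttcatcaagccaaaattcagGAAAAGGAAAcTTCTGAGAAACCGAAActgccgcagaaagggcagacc
Serpina3g: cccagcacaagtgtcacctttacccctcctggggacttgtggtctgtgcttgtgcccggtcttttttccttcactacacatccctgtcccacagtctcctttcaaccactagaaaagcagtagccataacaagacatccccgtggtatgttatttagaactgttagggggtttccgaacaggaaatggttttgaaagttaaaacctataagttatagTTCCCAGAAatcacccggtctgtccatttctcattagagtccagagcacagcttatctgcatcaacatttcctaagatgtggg
Irf1 and Serpina3g carried 1 GAS core each, at bases 161 and 218 of the 300, and Psme1 carried 1 ISRE core at base 260, read on the opposite strand. The other of the 2 Irf1 promoters, not printed, carried neither core. Ifitm3 carried 2 ISRE cores and 1 GAS core from base 253 onwards, and the GAS core overlapped the second ISRE core. No core was found in this window of the promoters of Cd274, Ccl12, Ms4a4c or H2-K1, nor in those of S100a4, Klf4 or Nr4a2, which says only that these letters are not there. Emp1, a downward gene, carried 2 GAS cores in 1 of its 2 promoters.

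The treatment contrast did not define the sets, and it was tested with the number set as a term by the quasi-likelihood test of edgeR. That term was itself chosen from the values of these libraries. The p-values here and in the interaction test below may therefore be too small for this reason as well. Picrotoxin libraries had higher values at an adjusted p under 0.05 for 8 genes, 0.0824% of those tested, and lower values for 19, 0.196%. Among the 8 was the ribosomal RNA row Rn45s, at 0.41 ± 0.09 (SE, edgeR adjusted p = 0.0242). Some of these rows had near-equal counts, as given below, so that the counts exceed the number of separate observations. None of the 112 separated genes was among the 27, which says little, because a gene with a large treatment difference can hardly be separated. The count of 27 moved with single libraries, to 62 without DMSO replicate 4 and 16 without DMSO replicate 5, and to 12, 16, 15 and 13 without picrotoxin replicates 3, 4, 5 and 6. It was 7 without DMSO replicates 3 and 5 together, and 12 when the number set was not a term. The median treatment difference, on the log2 scale, was 0.01 for the 65 upward genes, -0.02 for the 47 downward genes and -0.02 for all genes. For Psme1 it was -0.08 ± 0.10 (SE), for Cd274 0.22 ± 0.15 and for Fn1 0.07 ± 0.09. A treatment difference of these sizes was not detectable here, which does not show that there was none.

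The genes that did pass the treatment test overlapped between the number sets. Gvin1, an interferon-induced large GTPase, had 41.7 to 67.5 normalised molecules in the 6 DMSO libraries and 75.0 to 94.0 in the 6 picrotoxin libraries, a log2 difference of 0.64 ± 0.12 (SE, edgeR adjusted p = 0.0039), while its log2 difference between number sets was 0.20. Gm4070 shares all of its end with Gvin1 and had near-equal counts. Lcp1, the actin bundler plastin, rose by 0.48 ± 0.10 (edgeR adjusted p = 0.00811), the heat shock genes Hspa1b and Hspa1a rose by 1.72 ± 0.32 and 1.25 ± 0.25 (edgeR adjusted p = 0.00515 and 0.00919), and Fosb, of the AP-1 family, rose by 0.58 ± 0.13 (edgeR adjusted p = 0.0213). Leaving out 1 library at a time, the call was lost in 6 cases for Fosb, in 1 for Hspa1a and in 2 for Lrrc17. Hspa1b stood at 77.5 molecules in picrotoxin replicate 2 and at 10.1 in picrotoxin replicate 1, so that 1 library of the first set carried most of its rise there. Dennd5b, Fstl1, Mpv17l and Lrrc17 were lower with picrotoxin by log2 differences of -1.55, -2.55, -1.59 and -1.11, with edgeR adjusted p-values of 0.0039, 0.0039, 0.00694 and 0.00734. For Fstl1, a secreted glycoprotein of stromal cells, the DMSO libraries with the highest values were replicates 3 and 5, at 27.7 and 26.2 molecules, which also held the most fibroblast markers. Without these 2 libraries Fstl1 had a log2 difference of -1.78 (edgeR adjusted p = 0.369) and Lrrc17 had -0.51 (edgeR adjusted p = 0.277). Fosb and Hspa1a then had edgeR adjusted p-values of 0.323 and 0.156, and Gvin1, Gm4070 and Mpv17l each had 0.0537. The call was kept by Hspa1b, Lcp1, Dennd5b, Kif3a and Ccdc36. Kif3a and Ccdc36 had near-equal counts in every library, though their transcript ends share little sequence, and both were lower by -0.99 ± 0.18 (edgeR adjusted p = 0.0039).

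Whether the picrotoxin difference depended on the number set was tested as an interaction, also with edgeR. No gene of 9714 passed (0%), the smallest adjusted p was 0.113, and 565 genes had an unadjusted p under 0.05. DESeq2 gave 0 genes as well and 176 at an unadjusted p under 0.05. With every gene of at least 1 molecule 28 genes passed, and with the replicate number as a block 16 passed. The separated genes are not read in this test, since they had to lie apart in one direction within both treatments. Several genes shared the smallest p of 0.113, among them Ccl5, a chemokine that draws T cells, with set differences of 2.43 within DMSO and 0.57 within picrotoxin. Lrrc17, Kif3a and Ccdc36 were others, with -1.83, -1.68 and -1.68 within DMSO against -0.19, -0.25 and -0.26 within picrotoxin. Without DMSO replicate 4, 15 genes passed, and without DMSO replicates 3 and 5 together, 2 passed. With 2 libraries per treatment in the first set, an interaction of this kind had little precision, and the larger medians of the interferon lists within DMSO are given as values only.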

How the data were processed

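Tumour macrophages were sorted into pools of 100 cells, and RNA was sequenced from the 3' end with molecular barcodes and ERCC spike-ins. The authors mapped reads to mm10 with STAR and deposited raw counts of molecules per gene, in 1 table of 12 libraries. The handling of reads with several matches and of strand is not given in the sources used here. All columns were mapped to labelled libraries (0 left out), and groups came from the labels.

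Genes with a mean raw count of at least 1 were kept. Normalised molecules were counts divided by DESeq2 (version 1.42.0) size factors. Log2 differences and tests came from the quasi-likelihood test of edgeR (version 4.0.16; limma 3.58.1, R 4.3.3) with number set and treatment as terms, and with their interaction, with Benjamini-Hochberg adjustment over all genes and a threshold of 0.05. List scores were mean log2 CPM with a prior count of 2. The tests were checked on simulated data. Of the 30 pairs of libraries within a treatment none agreed within sampling noise, with chi-square values per degree of freedom of 1.23 to 3.15.

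Named genes were up to 15 per direction with the largest difference among separated genes with a mean of at least 10 normalised molecules (of genes with near-equal counts, the first), up to 6 separated members of each list, the sort markers, and up to 6 genes per direction by smallest p in the tests. Other genes in the text, such as list members whose sets overlapped, were chosen after their values were seen. The members and lists were chosen with earlier results of these data known. Alternatives were other scaling, count minimums, DESeq2, each treatment alone, a replicate block and each library left out. Leaving out DMSO replicates 3 and 5 together was chosen after seeing the data. Transcript lengths, positions and overlaps came from the GENCODE annotation of GRCm38, and promoters from RefSeq.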

Additional observations from a re-analysis of the deposited data

Results flagged for a closer look

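Within each number set, a library was picked out when its gap to the nearest other library was large for the range of the set by Dixon's criterion, which chance meets in about 1 in 20 groups. Of 202 groups looked at, 9 were picked out, so the flags are no more frequent than chance gives. For Adgre1, DMSO replicate 3 had 47.1 normalised molecules and the nearest library numbered 3 to 6 had 68.7. For Cfb, picrotoxin replicate 2 had 48.8 and the nearest library numbered 1 and 2 had 57.1. For Cfl1, picrotoxin replicate 4 had 245 and the nearest had 284. For Hspa1b, picrotoxin replicate 2 had 77.5 and the nearest had 11.9. For Ier5, picrotoxin replicate 1 had 35.9 and the nearest had 39.3.

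Of the list scores, in mean log2 CPM, the constitutive proteasome was at 6.98 in picrotoxin replicate 5, with the nearest at 7.12. The S phase list was at 6.18 in DMSO replicate 2, with the nearest at 6.00. The list of TNF, IL-1 and NF-kB genes was at 5.89 in DMSO replicate 3, with the nearest at 6.20. Fibroblast markers were at 7.54 in DMSO replicate 5, with the nearest at 5.17. The causes were not tested.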

How the results depend on the processing

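With a mean raw count of at least 10, 70 genes were separated, 17 passed the treatment test and the serine synthesis and ATF4 list had a median of -0.14. With every gene of at least 1 molecule, 87 passed for treatment and 28 for the interaction. DESeq2 gave 8 for treatment, and the fit without the number set gave 12. Within DMSO the matrix median was -3.21. Within picrotoxin the medians were 0.34 for the IFNγ list, 0 for the matrix list and -0.095 for the serine list. Without DMSO replicates 3 and 5, 178 genes were separated, the matrix and serine medians were -0.77 and -0.31, and 7 genes passed for treatment and 2 for the interaction. Leaving out 1 library at a time gave 133 to 240 separated genes, where fewer libraries had to lie apart. It gave 12 to 62 genes for treatment and 0 to 15 for the interaction, with 15, 4, 1 and 1 without DMSO replicates 4, 5 and 6 and picrotoxin replicate 4. List medians ranged from 0.44 to 0.59 (IFNγ), -2.85 to -1.44 (matrix) and -0.80 to -0.49 (serine). The cause was not tested where none is given.

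Equal numbers in both treatments cannot mark a shared animal, since each mouse was given either DMSO or picrotoxin. Nor were they shown to mark a shared preparation. Correlations of same-numbered libraries were -0.0048 to 0.13, above 0.1 in 1 of 6 pairs, and 4 of 12 libraries correlated best with their own number. The highest value was that of number 2, whose libraries belong to the set chosen after the data were seen. With a replicate block, 45 genes passed for treatment and 16 for the interaction. Several differences near 0 changed sign with the setting. The medians of the mitosis list and the small nucleolar RNA host genes were -0.11 and -0.35 over all libraries but 0.19 and 0.20 within picrotoxin.

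The sets were chosen from these values, 4 libraries stand on one side, and genes of few molecules were apart by little, so the depth limits what can be said of them.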
